A study of Homo sapiens with 6 samples.

Results

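The genes described here encode the proteins of the mitochondrial ribosome that carry the symbols MRPL or MRPS. They were chosen by symbol alone: a protein-coding gene named MRPL or MRPS followed by a number, with at most 1 letter after it, and no pseudogene or readthrough gene. Of 58825 identifiers in the table, 78 met this rule, 49 with an MRPL and 29 with an MRPS symbol, on 21 chromosomes. All 78 were among the 16208 genes that passed the filter on low counts. The study knocked down EIF5A2, a translation factor of the eIF5A family, in SKOV3, a line of human ovarian cancer cells, and sequenced RNA 48 h after transfection. The NC group received a negative control siRNA and the si-EIF5A2 group a single siRNA against EIF5A2. Each group had 3 libraries, all from the same line with a transfection reagent and no other treatment named in the labels. The methods state in general that experiments were done repeatedly, but neither they nor the labels say that these replicates came from separate cultures, so p-values measure the spread between these libraries, which may be technical.

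The mitochondrial ribosome translates the messages of the mitochondrial genome, which encode core subunits of the respiratory chain. Its rRNAs are transcribed inside the organelle, whereas all of its proteins are encoded in the nucleus, made in the cytosol and imported. Many of these proteins descend from bacterial ribosomal proteins, and others were added in the mitochondrial lineage. By this textbook division the members split into 51 proteins of the large subunit, which forms peptide bonds, and 26 of the small subunit, which decodes the message. MRPS30 and MRPS18A carry small-subunit symbols but sit in the large subunit, and MRPS36 is a subunit of a metabolic enzyme complex rather than of the ribosome. A bacterial homolog was assigned to 46 members, and 31 were counted as specific to mitochondria.

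Promoters of several members are printed here because the results return to them, either through the members that differed between the groups or through factors known to act on genes of this kind. Each sequence is the 100 bases before a RefSeq start on GRCh38.p14, written 5′ to 3′ on the strand of the gene. Capitals mark exact matches to 4 motifs searched on both strands: CCGGAAGT of the ETS family, GCATGCGC of NRF1, AAGATGGCG of YY1 and the E-box CACGTG. The windows are chr3:131502972-131503071 (minus strand) for MRPL3, chr3:139343894-139343993 (plus) for MRPS22, chr16:1773135-1773234 (minus) for MRPS34, chr2:74472681-74472780 (minus) for MRPL53, chr11:6683341-6683440 (minus) for MRPL17 and chr5:1799838-1799937 (minus) for MRPL36. The first 4 hold an ETS match, and each belongs to a gene called between the groups. They are all the called ones, 3 lower and 1 higher, among 12 members with an ETS match near a start. The other called members, 3 lower and 2 higher, hold no ETS match. MRPS22 has further annotated starts that are not shown. MRPL17 holds NRF1 matches, of which the ones in the first run of capitals overlap on opposite strands, and MRPL36 holds an E-box and a YY1 match.
MRPL3: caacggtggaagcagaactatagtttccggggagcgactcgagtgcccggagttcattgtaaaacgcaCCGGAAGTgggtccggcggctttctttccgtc
MRPS22: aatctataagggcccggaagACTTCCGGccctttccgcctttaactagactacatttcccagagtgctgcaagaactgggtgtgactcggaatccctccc
MRPS34: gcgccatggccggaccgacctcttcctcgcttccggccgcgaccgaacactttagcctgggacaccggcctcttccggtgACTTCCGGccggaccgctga
MRPL53: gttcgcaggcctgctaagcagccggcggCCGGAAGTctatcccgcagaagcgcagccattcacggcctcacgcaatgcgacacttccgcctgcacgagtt
MRPL17: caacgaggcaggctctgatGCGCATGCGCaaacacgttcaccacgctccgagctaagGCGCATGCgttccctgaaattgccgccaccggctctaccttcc
MRPL36: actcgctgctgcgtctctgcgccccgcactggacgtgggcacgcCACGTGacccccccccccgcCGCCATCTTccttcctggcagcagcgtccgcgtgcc

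The 6 libraries held 46900204 to 74142267 estimated counts in total. The low values stood at multiples of about 3.81, so 1 sequenced fragment appears to be worth several counts. Across genes, Pearson correlations of log2 expression were 0.964 to 0.974 within groups and 0.929 to 0.938 between them. EIF5A2 stood at 29.1 ± 1.15 CPM (counts relative to the TMM-adjusted library total; SD, n = 3) in NC and 3.69 ± 0.82 in si-EIF5A2, a log2 fold change of -2.98 (adjusted p = 1.6e-05). Of the epithelial and ovarian markers, the mean CPM of NC and of si-EIF5A2 was 418 and 396 for KRT18, 382 and 209 for KRT7, 608 and 377 for KRT8, and 106 and 61.0 for PAX8. ERBB2, a gene known to be amplified in SKOV3, lay between 42.1 and 48.6 CPM. EPCAM lay between 1.15 and 1.68 CPM and MUC16 was at 0 in every library. The blood markers PTPRC and CD3E were at 0, and HBB, PECAM1, VWF, COL1A1, DCN and LUM did not exceed 2.04 CPM in any library. In bulk RNA, fewer cells of a type and less RNA per cell cannot be told apart.

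Most mitochondrial ribosomal protein genes differed little between NC and si-EIF5A2. A gene was called where the adjusted p was under 0.05 and the levels differed more than 1.5-fold. By this rule 6 of the 78 members were called lower in si-EIF5A2 (13.6% of all genes tested were) and 3 were called higher (11.1% of all genes tested). The 9 calls make up 11.5% of the members, against 24.6% of all genes tested. MRPL3 and MRPS9 fell to 32.8% and 34.6% of their NC level, and the next largest fall was that of MRPL44, to 55.5%. The fitted log2 fold change of the members had a median of -0.06 (quartiles -0.30 and 0.12), against -0.01 over all genes tested (quartiles -0.495 and 0.41). Its SD was 0.44 over the members and 0.98 over all genes.

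**Figure D1:**
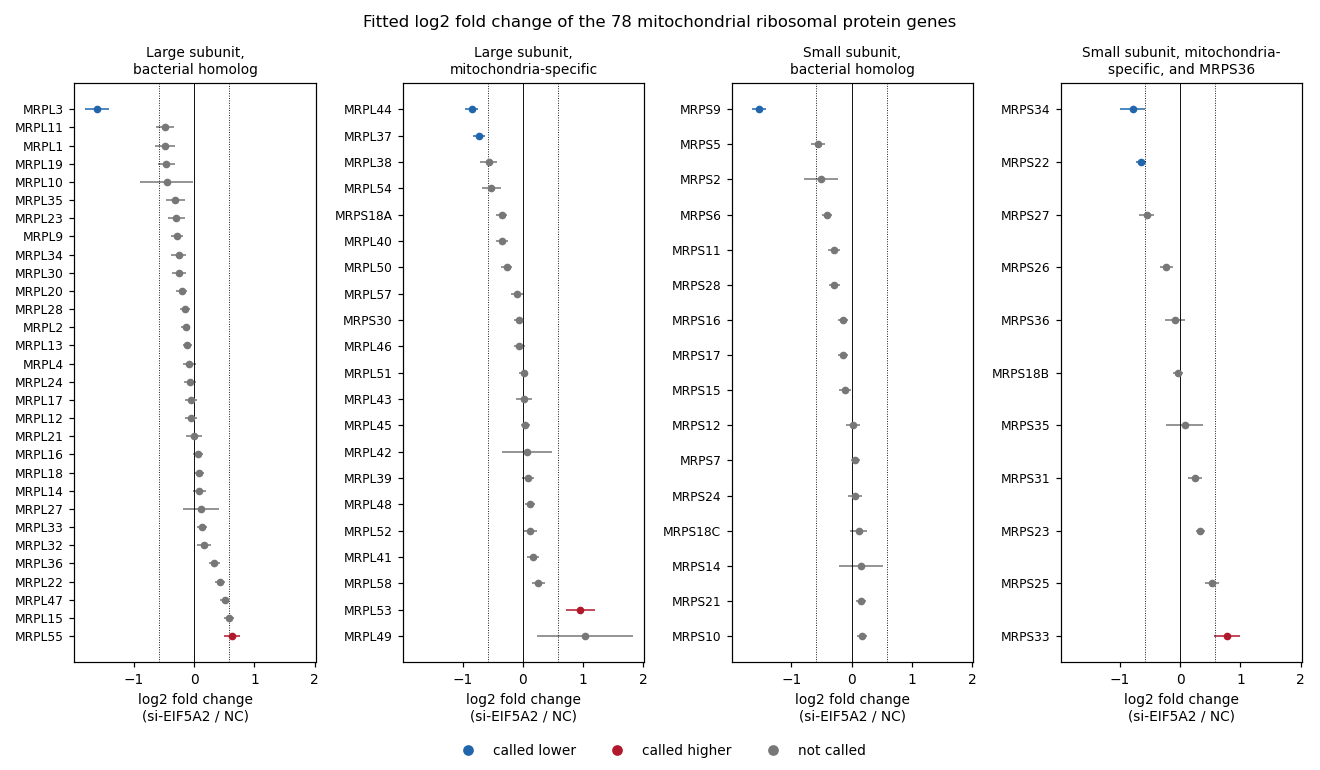
Fitted log2 fold change (si-EIF5A2 over NC, 3 libraries each) of the 78 members, in 4 panels by subunit and origin with MRPS36 added to the last; points are fitted values, bars 1 SE, dotted lines the 1.5-fold limit. Of the points, 6 are called lower and 3 higher, and 68 lie within 1.5-fold of NC.

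Within 1.5-fold of NC lay 68 of the 78 members (87.2%), against 61.0% of all genes tested. Of the cytosolic ribosomal protein genes 92.2% lay within this limit, and of the nuclear complex I genes 92.1%. The SD of their log2 fold changes was 0.437 and 0.365, so a narrow spread was not particular to the members. Without the limit on fold change, 27 members had an adjusted p under 0.05 (36.9% of all genes tested did), 18 of them lower and 9 higher. Of the 69 members not called, 48 had a 95% interval of the log2 fold change that stayed within 1.5-fold in both directions. For the other 21 the interval reached past that limit. The values of NC and si-EIF5A2 did not overlap for 37 members (51.2% of all genes tested did not overlap), with 24 lower in si-EIF5A2 (26.5% of all genes) and 13 higher (24.7% of all genes).

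**Figure D2:**
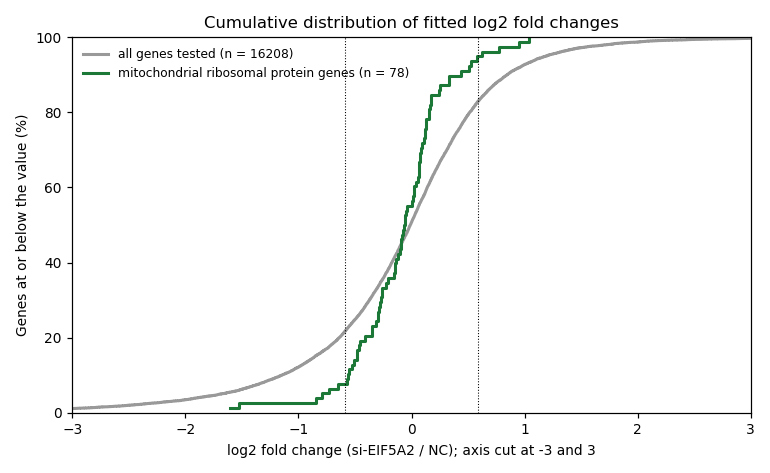
Cumulative share of genes (%) against the fitted log2 fold change, for the 78 members (green) and the 16208 genes tested (grey); dotted lines mark 1.5-fold. The curve of the members is the steeper one, with an SD of 0.44 against 0.98.

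Some members share exons with other genes, and whether the counting used strand is not given in the sources used here, so fragments of overlapping genes cannot be told apart with certainty. Exons of 16 members overlapped another gene on the same strand and those of 29 a gene on the opposite strand. Of the 37 members with no exon overlap, 2 were called lower, MRPL3 and MRPS34, and 2 higher, MRPS33 and MRPL55. Each direction made up 5.41% of them, against 13.6% lower and 11.1% higher among all genes tested. Leaving out 1 library at a time gave 1 to 3 lower and 0 to 3 higher. The other called members, MRPS9, MRPL44, MRPL37, MRPS22 and MRPL53, share exons with another gene. Pseudogenes named after members numbered 79 in the table, of which 12 had a count, and they held 0.02% to 0.106% as many counts as the members.

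The members together held 0.508% to 0.565% of all counts. Their summed level was 5576, 5640 and 5593 CPM in the NC libraries and 5085, 5442 and 5012 CPM in the si-EIF5A2 libraries. Every si-EIF5A2 library lay below every NC library, with means of 5603 ± 33.6 and 5180 ± 230 CPM (SD, n = 3). The large subunit genes summed to 3772, 3860 and 3843 CPM in NC and 3502, 3697 and 3407 CPM in si-EIF5A2, also without overlap. The small subunit genes summed to 1785, 1758 and 1727 CPM in NC and 1559, 1725 and 1590 CPM in si-EIF5A2. Replicate 2 of si-EIF5A2 lay closest to NC in all 3 sums. Such sums give most weight to abundant members, among them the called MRPL37 (mean 309 CPM in NC and 186 in si-EIF5A2) and MRPL3 (149 and 48.8 CPM). The median log2 difference of the members from their NC mean was -0.010, 0.006 and -0.014 in the NC libraries. In the si-EIF5A2 libraries it was -0.125, -0.003 and -0.087, so replicate 2 lay closest to NC by this measure too. Over all genes the same median was 0.002, -0.002 and -0.003 in the si-EIF5A2 libraries.

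By subunit, 3 of the 51 large subunit genes were called lower (13.6% of all genes tested) and 2 higher (11.1% of all genes tested). Their median log2 fold change was -0.06. Of the 26 small subunit genes, 3 were called lower and 1 higher, with a median of -0.07. By origin, 2 of the 46 members with a bacterial homolog were lower and 1 was higher, and 4 of the 31 mitochondria-specific members were lower and 2 higher. The median log2 fold changes were -0.095 and 0.01. These counts moved with single libraries. Without si-EIF5A2 replicate 2, 6 large subunit genes and 7 mitochondria-specific genes were called lower (13.0% of all genes tested were). Without NC replicate 2 or NC replicate 3, 5 large subunit genes were called lower (11.8% and 12.3% of all genes tested). Over the 6 libraries left out in turn, 0 to 1 mitochondria-specific genes, 0 to 2 with a bacterial homolog, 1 to 2 of the large subunit and 0 to 1 of the small subunit were called higher. The difference between the origins was not tested.

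Among the large subunit genes, MRPL3 encodes a protein of the ribosomal core whose bacterial relative reaches toward the peptidyl transferase centre (chromosome 3, 131462212 to 131502983, GRCh38, ENSG00000114686). It stood at 107, 172 and 168 CPM in the NC libraries and 52.0, 51.8 and 42.6 CPM in the si-EIF5A2 libraries. The groups did not overlap, and the highest si-EIF5A2 library lay well under the lowest NC library. The fitted log2 fold change was -1.61 (SE 0.20, adjusted p = 0.000836), which made MRPL3 the member with the largest fall.

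MRPL44, a mitochondria-specific protein with a ribonuclease III-like fold (chromosome 2, 223957404 to 223967714), was at 44.7, 44.4 and 47.9 CPM in NC and 25.7, 22.3 and 28.0 CPM in si-EIF5A2. The NC libraries were within a few CPM of each other and all lay above the si-EIF5A2 libraries. The log2 fold change was -0.85 (SE 0.11, adjusted p = 0.000547). The exons of MRPL44 overlap those of ENSG00000228802 on the other strand. MRPL37, also specific to mitochondria (chromosome 1, 54184041 to 54225464), was among the most abundant members, with 278, 348 and 300 CPM in NC and 180, 195 and 183 CPM in si-EIF5A2. The groups stood clearly apart, at a log2 fold change of -0.73 (SE 0.10, adjusted p = 0.000643). The exons of MRPL37 overlap those of CYB5RL and SSBP3 on the other strand.

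Among the small subunit genes, MRPS9 encodes the homolog of the bacterial protein whose tail reaches the decoding region (chromosome 2, 105037983 to 105099960). Its level was 40.3, 41.4 and 43.1 CPM in NC and 16.5, 14.1 and 12.7 CPM in si-EIF5A2. The libraries of each group clustered tightly, and the log2 fold change was -1.53 (SE 0.12, adjusted p = 4.47e-05). MRPS22, a mitochondria-specific protein whose gene is mutated in an inherited mitochondrial disease, was at 92.7, 98.8 and 98.3 CPM in NC and 59.1, 65.0 and 60.0 CPM in si-EIF5A2. The groups did not overlap, with a log2 fold change of -0.65 (SE 0.08, adjusted p = 0.000397). Its annotated span (chromosome 3, 139005806 to 139357223) shares exons with COPB2 on the other strand.

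MRPS34, which holds a mitochondria-specific place in the small subunit (chromosome 16, 1771890 to 1773155), was at 50.1, 44.6 and 56.6 CPM in NC and 30.2, 36.7 and 20.5 CPM in si-EIF5A2. The groups did not overlap, but the si-EIF5A2 libraries were spread widely. The log2 fold change was -0.79 (SE 0.21, adjusted p = 0.0235). This call was lost without NC replicate 1 (adjusted p = 0.0731), without NC replicate 3 (adjusted p = 0.0765), without si-EIF5A2 replicate 1 (adjusted p = 0.066) and with the replicate number as a block (adjusted p = 0.0592; 0.117 with offsets for GC content and length as well). The other 5 lower members, MRPL3, MRPS9, MRPL44, MRPL37 and MRPS22, were called lower in each of 18 alternative settings.

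**Figure D3:**
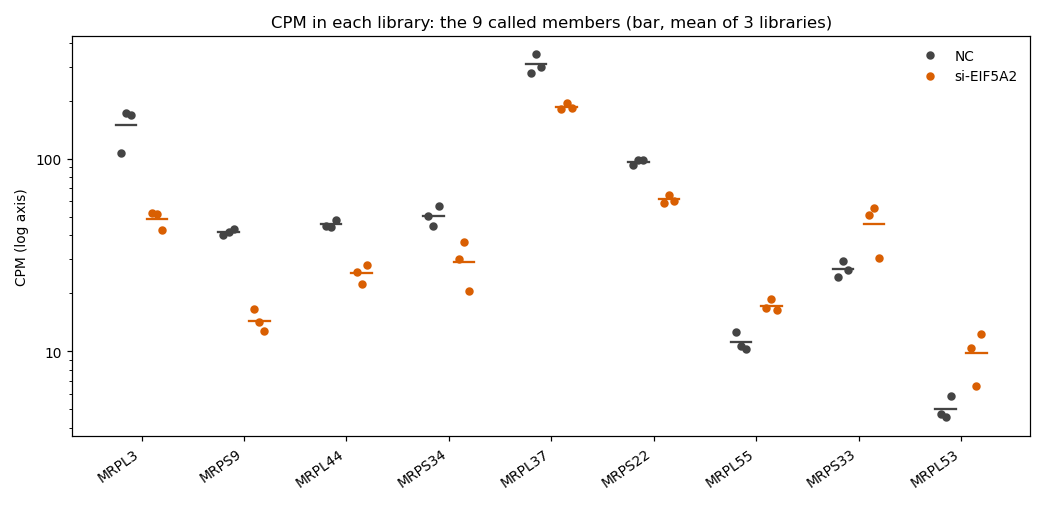
CPM on a log axis in each of the 6 libraries for the 9 called members (black, NC; orange, si-EIF5A2), with a bar at the mean of 3 libraries. The groups do not overlap for any of the 9; MRPS33 and MRPL53 have 1 si-EIF5A2 library close to NC.

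The 3 members called higher were expressed at lower levels. MRPL53, a protein near the stalk of the large subunit (chromosome 2, 74471958 to 74473322), was at 4.70, 4.53 and 5.87 CPM in NC and 10.4, 6.59 and 12.3 CPM in si-EIF5A2. Replicate 2 of si-EIF5A2 lay just above the NC libraries. The log2 fold change was 0.95 (SE 0.24, adjusted p = 0.0159), and its exons overlap those of CCDC142 on the same strand, which makes its counts less certain. The call was lost without NC replicate 1 (adjusted p = 0.0571), NC replicate 2 (adjusted p = 0.0566), si-EIF5A2 replicate 1 (adjusted p = 0.0531) or si-EIF5A2 replicate 3 (adjusted p = 0.0552).

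MRPS33, a small subunit protein specific to mitochondria (chromosome 7, 141002610 to 141015228), was at 24.2, 29.5 and 26.3 CPM in NC and 51.0, 55.6 and 30.4 CPM in si-EIF5A2. Here too 1 si-EIF5A2 library, replicate 3, lay next to NC. The log2 fold change was 0.78 (SE 0.22, adjusted p = 0.0322). The call was lost without any one library except si-EIF5A2 replicate 3: the adjusted p was 0.116, 0.0627 and 0.104 without NC replicates 1, 2 and 3, and 0.104 and 0.0905 without si-EIF5A2 replicates 1 and 2. It was also lost with offsets for GC content and length (adjusted p = 0.0517) and with no filter on low counts (adjusted p = 0.0646).

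MRPL55, assigned as the homolog of a bacterial large subunit protein (chromosome 1, 228106679 to 228109312), was at 12.6, 10.6 and 10.3 CPM in NC and 16.8, 18.6 and 16.4 CPM in si-EIF5A2. The groups did not overlap, and the log2 fold change was 0.63 (SE 0.13, adjusted p = 0.00613). Without NC replicate 3 it was 0.56 and without si-EIF5A2 replicate 2 it was 0.57, both under the 1.5-fold limit. None of the 3 higher members was called in all 18 settings.

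Another 18 members had an adjusted p under 0.05 with a fold change under 1.5, 12 of them lower and 6 higher. The largest falls were those of MRPL38 (log2 fold change -0.57, adjusted p = 0.0167), MRPS5 (-0.56, adjusted p = 0.00585), MRPS27 (-0.56, adjusted p = 0.0089) and MRPL54 (-0.53, adjusted p = 0.0316). MRPL47, which belongs to the proteins around the tunnel exit in bacterial ribosomes, was at 84.1, 87.3 and 81.7 CPM in NC and 123, 121 and 115 CPM in si-EIF5A2. It was the member with the smallest spread within groups, and its rise of 0.51 in log2 had an adjusted p of 0.00089. MRPL15, a core protein of the large subunit, was at 119, 128 and 135 CPM in NC and 184, 206 and 181 CPM in si-EIF5A2. Its log2 fold change of 0.58 (adjusted p = 0.00112) lay just under the 1.5-fold limit. MRPL15 was called higher in several other settings, among them DESeq2 (0.588) and library sizes alone (0.588). The same held without NC replicate 3 (0.616), si-EIF5A2 replicate 1 (0.595) or si-EIF5A2 replicate 3 (0.610). MRPS25 (0.53, adjusted p = 0.00884) was the remaining member with a rise of that size. Without si-EIF5A2 replicate 2, MRPL11 (-0.66), MRPL38 (-0.75), MRPL54 (-0.65) and MRPS27 (-0.61) passed the limits as well. The number of members called lower was then 10 (13.0% of all genes tested were). MRPL55 and MRPS33 were no longer called, and 1 member was called higher (10.3% of all genes tested). The number called higher was also 1 without NC replicate 2 (9.99% of all genes tested). MRPL38, MRPL54, MRPS27, MRPS5, MRPL1 and MRPS25 passed the limits in other settings too.

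In the stalk, which recruits translation factors, MRPL12 was at 235, 206 and 202 CPM in NC and 187, 228 and 205 CPM in si-EIF5A2, overlapping throughout, with a log2 fold change of -0.05 and a 95% interval from -0.28 to 0.18. MRPL11, at the base of the stalk, was at 92.6, 90.6 and 86.4 CPM in NC and 62.8, 79.3 and 50.6 CPM in si-EIF5A2. Those groups did not overlap, and the log2 fold change was -0.48 (adjusted p = 0.0413). The stalk protein MRPL10 had a log2 fold change of -0.46 with a 95% interval from -1.59 to 0.67. Near the stalk, MRPL53 was called higher and MRPL54 differed by -0.53 in log2 (adjusted p = 0.0316), as given above.

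Around the exit tunnel, MRPL22 was at 33.4, 32.6 and 35.1 CPM in NC and 43.8, 47.7 and 44.9 CPM in si-EIF5A2, with no overlap (log2 fold change 0.435, adjusted p = 0.00458). MRPL24 and MRPL45, the latter an anchor of the ribosome to the inner membrane, had log2 fold changes of -0.07 and 0.04, and MRPL23 one of -0.30 (95% interval -0.62 to 0.03). In the core, MRPL2 (-0.14), MRPL4 (-0.08) and MRPL16 (0.06) had adjusted p from 0.208 to 0.599, beside the fall of MRPL3. MRPS12, the small subunit protein at the decoding site, had a log2 fold change of 0.02 with a 95% interval from -0.23 to 0.28. MRPL58, a peptide release factor built into the large subunit, differed by 0.255 in log2 (adjusted p = 0.109). MRPL57 (-0.09) and MRPS36 (-0.09) overlapped between the groups.

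Levels between genes were compared per length, as TPM, counts per base scaled to a common total, over the union of each gene's exons. In NC the members had a median of 71.6 TPM and ranged from 6.02 to 576 TPM. The large subunit genes had a median of 79.9 TPM and the small subunit genes one of 60.5 TPM, while the cytosolic ribosomal protein genes had 1119 TPM. MRPL12 was the highest member with 576 ± 35.1 TPM in NC and 584 ± 41.3 TPM in si-EIF5A2 (SD, n = 3). MRPL37 followed with 335 TPM in NC and 212 TPM in si-EIF5A2, and MRPL15 with 296 ± 25.6 TPM and 464 ± 19.9 TPM, so that MRPL15 stood above MRPL37 in the knockdown. At the low end were MRPL42 (6.02 TPM over an exon union of 16393 bases), MRPL53 (10.4 TPM) and MRPS33 (14.0 TPM). An exon union longer than the transcripts in use lowers the TPM of a gene.

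Replicates of most members stayed close together. The SD of log2 CPM within groups had a median of 0.13 over the members and 0.21 over all genes tested, and it exceeded 0.4 for 7 members (8.97%, against 27.8% of all genes). MRPL49 had the widest spread, with 29.0, 50.3 and 23.6 CPM in NC and 151, 35.9 and 24.8 CPM in si-EIF5A2. Its log2 fold change of 1.04 (adjusted p = 0.385) rested on si-EIF5A2 replicate 1 and was -0.185 without it. MRPL10 was at 74.2, 55.0 and 110 CPM in NC and 71.9, 29.1 and 72.6 CPM in si-EIF5A2, and MRPL42 at 20.1, 41.2 and 45.1 CPM and 44.1, 45.0 and 22.0 CPM. In both genes single libraries of each group lay apart and the groups overlapped. MRPS14, MRPS35, MRPL27 and MRPS2 were the other 4, and none was called. The smallest spreads were those of MRPL47, MRPS17 and MRPL22.

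**Figure D4:**
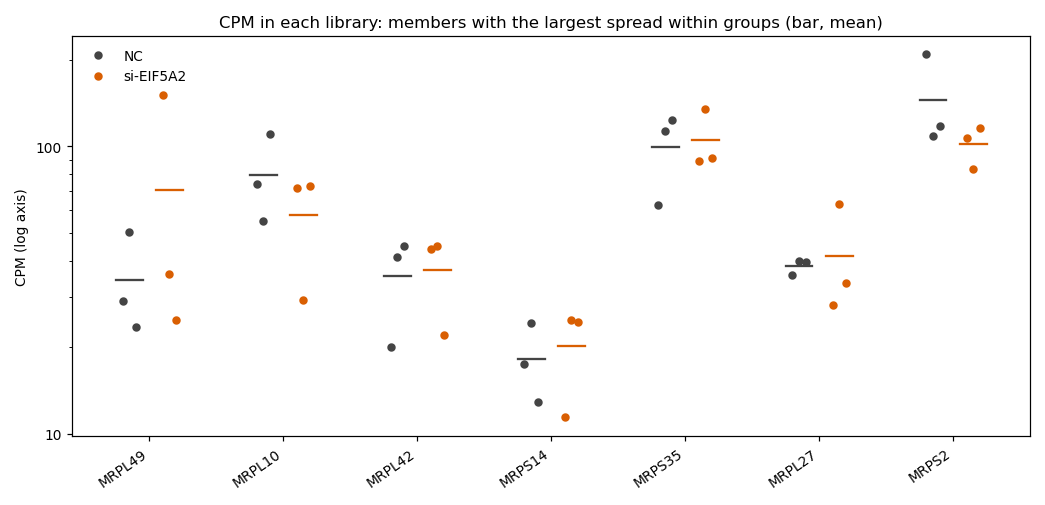
CPM on a log axis in each library for the 7 members whose SD of log2 CPM within groups exceeded 0.4 (black, NC; orange, si-EIF5A2), with a bar at the mean. The groups overlap for each of the 7 genes.

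Many members start close to another gene on the opposite strand, in a head-to-head arrangement in which both genes share the sequence between their starts. Such a gene within 1000 bases was annotated for 29 members, and for 28 of them it was among the genes tested. Starts are here the outer ends of the genes in GENCODE, and pairs whose ends overlap were not set apart. For some members, MRPL11, MRPL51 and MRPS22 among them, these starts differ from the RefSeq starts used for the promoters, so the distances are approximate. For 9 of these 28 members the neighbour was called, 8 times lower and once higher, and none of the 9 members was itself called. Of all 29 members with such a gene only 2 were called (6.90%), so the lack of calls among these 9 is no result about them. In 1 pair the member alone was called, MRPS34, whose neighbour EME2 differed by 0.88 in log2 (adjusted p = 0.0623). For the remaining 18 members, which include MRPL46 and MRPS11 as neighbours of each other, neither gene was called. With the members themselves left out, 9 of 26 neighbours were called, against 24.6% of all genes tested. Leaving out 1 library at a time gave 7 to 8 neighbours called lower and 1 to 2 called higher.

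SKA3, a kinetochore protein, starts 43 bases from MRPL57 and went from 24.0 ± 3.35 CPM in NC to 3.45 ± 0.85 CPM (log2 fold change -2.80, adjusted p = 3.81e-05). MRPL57 was at 91.3, 74.6 and 72.6 CPM in NC and 72.5, 79.4 and 72.2 CPM in si-EIF5A2, and its groups overlapped. NCAPD2, a condensin subunit that starts 485 bases from MRPL51, went from 276 ± 18.0 to 53.7 ± 3.61 CPM (-2.36, adjusted p = 4.8e-06), while MRPL51 had a log2 fold change of 0.01. EME1, an endonuclease subunit that starts 6 bases from MRPL27, differed by -2.05 in log2 (adjusted p = 0.000486), against 0.11 for MRPL27. MTBP, which starts 2 bases from MRPL13, had -1.26 (adjusted p = 0.000496), against -0.12 for MRPL13. Exons of MRPL51 overlap those of NCAPD2 on the other strand, and exons of MRPL13 those of MTBP, so the counts of these pairs may share fragments.

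The remaining called neighbours were SLC7A7 beside MRPL52 (-2.32, from 1.96 to 0.39 CPM), GGA3 beside MRPS7 (-1.02), SARS2, the mitochondrial seryl-tRNA synthetase, beside MRPS12 (-0.86), PTCD2 beside MRPS27 (-0.655) and ZNF189 beside MRPL50 (0.88). Exons of MRPS12 and SARS2 overlap on opposite strands as well. GGA3 was not called with the replicate block and offsets for GC content and length together (-0.875, adjusted p = 0.0564). MRPS27, the member beside PTCD2, had a log2 fold change of -0.56, and the call of PTCD2 was lost with the replicate number as a block (adjusted p = 0.0515) and without NC replicate 2 (adjusted p = 0.0868), NC replicate 3 (adjusted p = 0.114), si-EIF5A2 replicate 2 (adjusted p = 0.0857) or si-EIF5A2 replicate 3 (adjusted p = 0.0534). MRPL46 and MRPS11 start 34 bases apart and form a pair within the set, with log2 fold changes of -0.06 and -0.30.

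A RefSeq promoter window of 300 bases, 250 before and 50 after the start, was given for 69 of the 78 members. The ETS motif was found in 12 of them (17.4%, against 4.95% of 27305 genes with a window and 9.63% of the genes tested here), the YY1 motif in 13 (18.8%, against 2.14% and 4.51%), the NRF1 motif in 6 (8.70%, against 3.68% and 6.26%) and the E-box in 9 (13.0%, against 8.77% and 12.5%). A match is a description of these letters and no sign of binding. Of the 12 members with the ETS motif, 3 were called lower, MRPL3, MRPS22 and MRPS34, and 1 higher, MRPL53, with a median log2 fold change of 0.04. Of the 57 with a window and no ETS motif, 3 were lower and 2 higher (median -0.06), and over all genes tested 13.6% were lower and 11.1% higher. The difference between members with and without a motif was not tested. None of the 13 with the YY1 motif and none of the 6 with the NRF1 motif was called, and their medians were 0.06 and 0.12. With 11.5% of all members and 24.6% of all genes tested called, a count of 0 in groups this small is no result about their carriers. Of the 9 with an E-box, MRPL37 was lower and MRPS33 higher. MRPL17 and MRPL36, printed above for their NRF1, E-box and YY1 matches, were not called.

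Other genes that act with the mitochondrial ribosome were taken by list, and their counts stand beside the 24.6% of all genes tested that were called. Among 5 ribosomal proteins with other symbols, DAP3, a GTP-binding protein of the small subunit, was higher, at 137, 160 and 145 CPM in NC and 225, 230 and 218 CPM in si-EIF5A2. The groups stood apart (log2 fold change 0.61, adjusted p = 0.000648), and without NC replicate 1 the change was 0.56, under the 1.5-fold limit, as it was with no filter on low counts (0.58). Among 27 genes of assembly and rRNA modification, 1 was lower and 1 higher (7.41% called). MRM1, which methylates the large rRNA, went from 6.97 ± 1.06 to 2.16 ± 0.37 CPM (-1.69, adjusted p = 0.000487), and RCC1L, an assembly factor, from 17.8 ± 1.37 to 35.1 ± 1.80 CPM (0.98, adjusted p = 0.000183). Among 15 translation factors only the release factor MTRF1L was called, higher by 0.72 (adjusted p = 0.0118), and 0.54 without NC replicate 1.

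Among 19 genes of mitochondrial transcription, RNA processing and DNA maintenance, TFAM was the single call. TFAM packages mitochondrial DNA and activates its transcription. It was at 68.4, 72.1 and 71.3 CPM in NC and 22.1, 19.0 and 23.0 CPM in si-EIF5A2. Every si-EIF5A2 library was far below NC, and the log2 fold change was -1.73 (SE 0.10, adjusted p = 1.29e-05). The mitochondrial rRNAs MT-RNR1 and MT-RNR2 were at 1794 ± 41.8 and 11443 ± 695 CPM in NC and at 2516 ± 145 and 13940 ± 411 CPM in si-EIF5A2. Their log2 fold changes of 0.49 (adjusted p = 0.000912) and 0.285 (adjusted p = 0.0106) were under the 1.5-fold limit.

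Of 9 regulators of mitochondrial biogenesis, 2 were called lower (22.2%, against 13.6% of all genes tested). The log2 fold change was below 0 for 7 of them and for 8225 of the 16208 genes tested. The medians were -0.18 and -0.01. YY1 was at 95.3, 73.5 and 94.2 CPM in NC and 48.9, 54.0 and 44.1 CPM in si-EIF5A2, without overlap (-0.84, adjusted p = 0.00139). PPARGC1B, a coactivator, went from 7.12 to 4.72 CPM (-0.59, adjusted p = 0.0348), and its call was lost with the replicate number as a block (adjusted p = 0.0667) and without NC replicate 1 (adjusted p = 0.0963), NC replicate 2 (adjusted p = 0.101), si-EIF5A2 replicate 2 (adjusted p = 0.0833) or si-EIF5A2 replicate 3 (adjusted p = 0.0557). With library sizes alone (-0.58) and with offsets for GC content and length (-0.56) it was under the 1.5-fold limit. NRF1 (-0.18) and GABPA (-0.06), an ETS factor, were not called. MYC was at 175, 13.9 and 14.1 CPM in the si-EIF5A2 libraries and was not called. Replicate 1, its high library, was also the high library of MRPL49, among other genes, and a link was not tested.

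The cytosolic ribosomal protein genes and the nuclear genes of respiratory complex I were set beside the members. Of 77 cytosolic ribosomal protein genes, 5 were called, all lower, and the median log2 fold change was -0.045. Of 38 complex I genes, 2 were called, both higher, with a median of -0.02. The shares called were 6.49% and 5.26%, against 11.5% of the mitochondrial ribosomal protein genes and 24.6% of all genes tested. No difference between these lists was tested.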

How the data were processed

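The authors sequenced RNA of NC and si-EIF5A2 cells, ran StringTie and ballgown, and deposited a table of estimated counts in whole numbers, 1 row a gene, not normalized and not pooled. The submitters' processing notes list Bowtie 0.12.2 and the mouse builds mm8 and mm9, which do not go with the human identifiers. The aligner, build and annotation release behind the table are not given in the sources used here. Groups came from the sample labels, and 0 columns were left over. Symbols were found for 58472 of 58825 identifiers. Positions, lengths and overlaps were taken from GENCODE release 29 (GRCh38), in which 58552 identifiers were found.

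All 6 libraries were fitted in edgeR 4.0.16 under R 4.3.3, condition being the only term. It used filterByExpr, TMM factors (0.985 to 1.01) and robust quasi-likelihood tests, and p-values of the 16208 genes were adjusted by Benjamini-Hochberg. The SE of a log2 fold change was obtained from it and its F statistic. CPM used TMM library sizes. A count of 0 allows up to 3 steps of the low values, 0.157 to 0.243 CPM, for counting error only. Alternatives were DESeq2 1.42.0, other normalizations and filters, a replicate block, offsets for GC content and length, counts divided by their step, thinning, other call limits and leaving out each library. Counts over head-to-head genes and over members without exon overlap were added after the data had been seen. On simulated counts for this comparison, 191 of the 15724 genes tested were changed. There edgeR recovered 63.9% of changed genes and 75.3% of those changed 4-fold, and 0.813% of its calls were false. The share of false calls was 14.2% for edgeR with the replicate block and 21.9% for DESeq2. Whether these rates hold for the data, where 24.6% of all genes tested were called, was not tested.

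The members and lists were chosen with earlier results of these data known. The genes named are EIF5A2, the called members, members of known position, those with the highest and lowest level per length or the largest and smallest spread, and the called genes of the other lists. The head-to-head genes, the members just under the fold limit, the mitochondrial rRNAs, NRF1, GABPA and MYC are outside this rule and were named after their values were seen.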

Additional observations from a re-analysis of the deposited data

How the results depend on the processing

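The median log2 fold change of the members lay between -0.117 and -0.035 over all alternatives, and no called member changed direction in any of them. The members called lower numbered 6 and those called higher 3 (13.6% and 11.1% of all genes tested). With an adjusted p under 0.05 and no limit on fold they numbered 18 and 9 (18.9% and 18.0% of all genes tested), and with the threshold of the methods, an unadjusted p under 0.05 and a fold over 2, they numbered 2 and 0 (9.24% and 5.38%). Leaving out 1 library at a time gave 5 to 10 called lower, the highest without si-EIF5A2 replicate 2. It gave 1 to 3 called higher, the lowest without NC replicate 2 or si-EIF5A2 replicate 2. Of all genes tested, 11.8% to 13.0% were then called lower and 9.31% to 10.3% higher. DESeq2 called 6 lower and 4 higher (14.5% and 12.1% of all genes tested). With the replicate number as a block the counts were 6 lower and 3 higher (12.6% and 10.4% of all genes tested) and the median was -0.064. No pairing by number was visible: the deviations of same-numbered libraries from their group means correlated at -0.0244, 0.00522 and -0.00269 over 16208 genes. Differently numbered libraries correlated at -0.0412 to 0.0436. These values cannot show whether same-numbered libraries were prepared together, which the labels do not say. Called in each of 18 settings were 5 members, all lower; MRPS34, MRPL53, MRPS33 and MRPL55 were not. With 3 libraries per group and a common biological coefficient of variation of 0.261, 21 of the 69 members not called had a 95% interval that reached past 1.5-fold.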
